A study of Mus musculus with 9 samples.

Results

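Glo1 and its chromosome 17 neighbours Btbd9, Cmtr1 (older symbol Ftsjd2) and Dnah8 (older symbol Dnahc8) were followed through every probe set annotated to 1 of these 4 genes alone, whatever its level or difference. They are 4 of the 18193 genes with a probe set of their own and had 13 of the 45037 probe sets tested: 4 for Glo1, 3 for Btbd9, 4 for Cmtr1 and 2 for Dnah8. Transcript levels were measured in brain hemispheres, without the cerebellum, of experimentally naive male mice aged 11 ± 1 weeks. The 3 strains were BALB/cJ, an inbred strain, B6By.C.132.54, a line whose name marks a C57BL/6By background with BALB/c as the donor, and C57BL/6ByJ, an inbred strain. Each strain had 3 Affymetrix mouse genome arrays. An array held RNA of 10 pooled hemispheres, so its replicates measure how pools differ and not how single mice do. No strain was treated, and which stretches of the genome B6By.C.132.54 took from its donor is not given in the sources used here.

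Glo1 encodes glyoxalase 1, which uses glutathione to detoxify methylglyoxal, a reactive by-product of glycolysis. In mice its expression differs between inbred strains and has been studied for its part in anxiety-like behaviour, and a duplicated segment of chromosome 17 that carries Glo1 is known from some inbred strains. Btbd9 encodes a BTB domain protein whose human counterpart is a susceptibility gene for restless legs syndrome. Cmtr1 encodes the methyltransferase that modifies the ribose of the first transcribed nucleotide of capped messenger RNA. Dnah8 encodes an axonemal dynein heavy chain, a motor subunit of motile cilia and sperm flagella. The comparison asks whether the neighbours rise together with Glo1, as transcripts of a shared duplicated segment may. Copy number and the bounds of any such segment were not measured.

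By RefSeq gene order, Cmtr1 lies first, followed by Btbd9, Glo1 and Dnah8. Btbd9 and Glo1 stand next to each other among the genes with a probe set, 1 such gene lies between Glo1 and Dnah8, and 4, Btbd9 among them, lie between Cmtr1 and Glo1. Glo1 is read from the minus strand and Dnah8 from the plus strand, so that both are read away from the stretch between their starts. The 250 bases before the annotated start of Glo1 are shown with those of Dnah8 and Cmtr1, since the question is whether these genes move together between strains; Btbd9 was not matched. They are RefSeq sequences of the C57BL/6J reference assembly (GRCm38.p6), at chr17:30612660-30612909 on the minus strand for Glo1, chr17:30626686-30626935 on the plus strand for Dnah8 and chr17:29660345-29660594 on the plus strand for Cmtr1, written 5′ to 3′. Capitals mark a GC box (GGGCGG) or a CCAAT box (CCAAT) on either strand.
Glo1: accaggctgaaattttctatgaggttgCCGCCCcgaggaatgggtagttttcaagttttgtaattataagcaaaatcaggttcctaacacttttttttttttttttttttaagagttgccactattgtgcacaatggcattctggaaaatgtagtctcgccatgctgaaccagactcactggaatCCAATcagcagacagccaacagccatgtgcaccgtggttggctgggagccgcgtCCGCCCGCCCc
Dnah8: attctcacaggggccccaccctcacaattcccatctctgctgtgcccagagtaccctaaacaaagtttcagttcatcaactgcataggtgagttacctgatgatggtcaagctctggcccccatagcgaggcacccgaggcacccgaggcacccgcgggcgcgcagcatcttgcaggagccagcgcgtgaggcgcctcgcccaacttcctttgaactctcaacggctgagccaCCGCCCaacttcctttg
Cmtr1: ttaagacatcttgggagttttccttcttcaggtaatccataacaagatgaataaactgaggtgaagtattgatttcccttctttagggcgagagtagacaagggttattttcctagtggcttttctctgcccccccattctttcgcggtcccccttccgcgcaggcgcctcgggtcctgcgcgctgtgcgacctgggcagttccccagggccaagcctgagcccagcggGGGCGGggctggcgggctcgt

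The Glo1 stretch held 3 GC boxes, 2 of them overlapping within the last 11 bases before the start, and 1 CCAAT box 65 to 61 bases before it. The Dnah8 and Cmtr1 stretches held 1 GC box each and no CCAAT box. Of 32851 RefSeq promoters cut to the same length, 32.7% held a GC box and 33.8% a CCAAT box. The letters of a TATA box (TATAAA) and of the antioxidant response element core (TGACNNNGC) were in none of the 3 stretches, and in 12.4% and 10.2% of all promoters. A match describes the reference letters and no measured binding.

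Markers of neurons were bright, and most of those of cerebellum were dim. The 4 neuron markers lay at 9.43 to 11.0 log2 intensity, and 3 of 4 cerebellum markers (Pcp2, Cbln3 and Gabra6, with Cbln1 at 6.59) lay below 3.97, the median level of all probe sets. Log2 intensity is the base 2 logarithm of the deposited signal, so a difference of 1 is a doubling. A difference was called where limma's moderated test gave a Benjamini-Hochberg adjusted p under 0.05 over all 45037 probe sets. In 2 of the 13 probe sets some arrays shared an identical value, as did 61.5% of all probe sets. B6By.C.132.54 replicate 3 stood apart, with the narrowest spread of values (interquartile range 2.73, against 2.84 to 2.98 on the other 8 arrays) and the lowest correlation with its own strain (mean r = 0.988). In whole tissue, more cells that express a gene and more of its RNA per cell cannot be told apart. Among 26 markers of neurons, glia, microglia, endothelium, choroid plexus and ependyma with a probe set, BALB/cJ differed from C57BL/6ByJ in 3, where 1.32% of genes were called by their brightest probe set. They were Gfap of astrocytes (8.06 in BALB/cJ and 7.14 in C57BL/6ByJ, limma adjusted p = 0.00393), C1qb of microglia (7.05 in BALB/cJ, against 7.80 in C57BL/6ByJ, limma adjusted p = 0.0193) and Cldn5 of endothelium (7.03 in BALB/cJ and 7.57 in C57BL/6ByJ, limma adjusted p = 0.0466). The other markers of these cell types did not pass. Of microglia, C1qa (7.86 in BALB/cJ and 7.69 in C57BL/6ByJ), Csf1r (9.02 and 8.99) and Cx3cr1 (6.39 and 6.36) went the other way from C1qb. Aif1 was lower in BALB/cJ (4.15 and 4.23), as were Pecam1 (4.97 and 5.11) and Flt1 (6.67 and 6.80) of endothelium. Of astrocytes, Aqp4 (8.57 and 8.66) and Slc1a3 (8.84 and 8.89) were lower in BALB/cJ and Aldh1l1 (7.56 and 7.41) higher. Array means over all 4 astrocyte markers, Gfap included, lay at 8.08 to 8.36 in BALB/cJ, against 7.89 to 8.15 in C57BL/6ByJ. Such means were lower in BALB/cJ without overlap for endothelium (6.08 to 6.32, against 6.44 to 6.525 in C57BL/6ByJ). They were so too for choroid plexus (6.86 to 7.02 and 7.12 to 7.34) and ependyma (3.930 to 4.020 and 4.024 to 4.118). Those of astrocytes, neurons, oligodendrocytes and microglia overlapped. The part of cell composition in the results below was not tested.

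Glo1 was higher in BALB/cJ than in C57BL/6ByJ and B6By.C.132.54 on all 4 of its probe sets, by 1.62- to 2.07-fold against C57BL/6ByJ, and 3 of the 4 passed the test in each comparison. None of the 9 probe sets of Btbd9, Cmtr1 and Dnah8 passed the test in any comparison of strains, where 1.43% of all probe sets passed between BALB/cJ and C57BL/6ByJ. With a share this low, an absence of calls among 9 probe sets does not set these genes apart. The upper 95% confidence bounds for BALB/cJ over C57BL/6ByJ reached 1.21-fold over the Btbd9 probe sets and 1.26-fold over those of Cmtr1. Dnah8 was too dim for its bound to limit a change in the transcript. The lower bounds for the 3 called Glo1 probe sets were 1.44-, 1.56- and 1.76-fold. For the uncalled Glo1 probe set, 1451240_a_at, the lower bound was 1.21-fold, which is not above the Btbd9 and Cmtr1 upper bounds.

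The brightest Glo1 probe set, 1424109_a_at, read 9.29, 9.46 and 9.50 log2 intensity in the 3 BALB/cJ arrays, against 8.47, 8.51 and 8.57 in C57BL/6ByJ. All BALB/cJ arrays thus lay above all C57BL/6ByJ arrays. The means were 9.42 ± 0.111 in BALB/cJ and 8.52 ± 0.0522 in C57BL/6ByJ (SD, n = 3 each), a 1.87-fold difference (0.90 ± 0.115 log2, SE; limma adjusted p = 0.00178). Only 0.235% of all probe sets had a greater increase in this comparison.

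Probe set 1424108_at showed the largest difference of the 4. It read 8.60, 8.85 and 8.96 log2 intensity in BALB/cJ, against 7.69, 7.84 and 7.74 in C57BL/6ByJ. The difference was 2.07-fold (1.05 ± 0.108 log2, SE; limma adjusted p = 0.000347), with a 95% interval of 1.76- to 2.44-fold.

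Probe set 1436070_at was designed on a different transcript record from the other 3 Glo1 probe sets, which share 1 record. It read 6.98, 7.05 and 7.03 in BALB/cJ, against 6.28, 6.34 and 6.35 in C57BL/6ByJ. This was the tightest of the 4 and the smallest in fold, at 1.62-fold (0.70 ± 0.0772 log2, SE; limma adjusted p = 0.000645).

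The dimmest Glo1 probe set, 1451240_a_at, read 5.40, 4.79 and 4.91 in BALB/cJ, against 4.55, 4.07 and 4.10 in C57BL/6ByJ. The strains did not overlap, but arrays of a strain scattered widely and the 1.74-fold difference did not pass (0.80 ± 0.237 log2, SE; limma adjusted p = 0.244). Within each replicate number it was 0.86, 0.72 and 0.82, and with the replicate number as a block it passed (limma adjusted p = 0.00877). In all, 3 of 4 Glo1 probe sets were called higher, where 0.508% of all probe sets were. All 4 had every BALB/cJ array above every C57BL/6ByJ array, where 6.65% of all probe sets did.

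**Figure D1:**
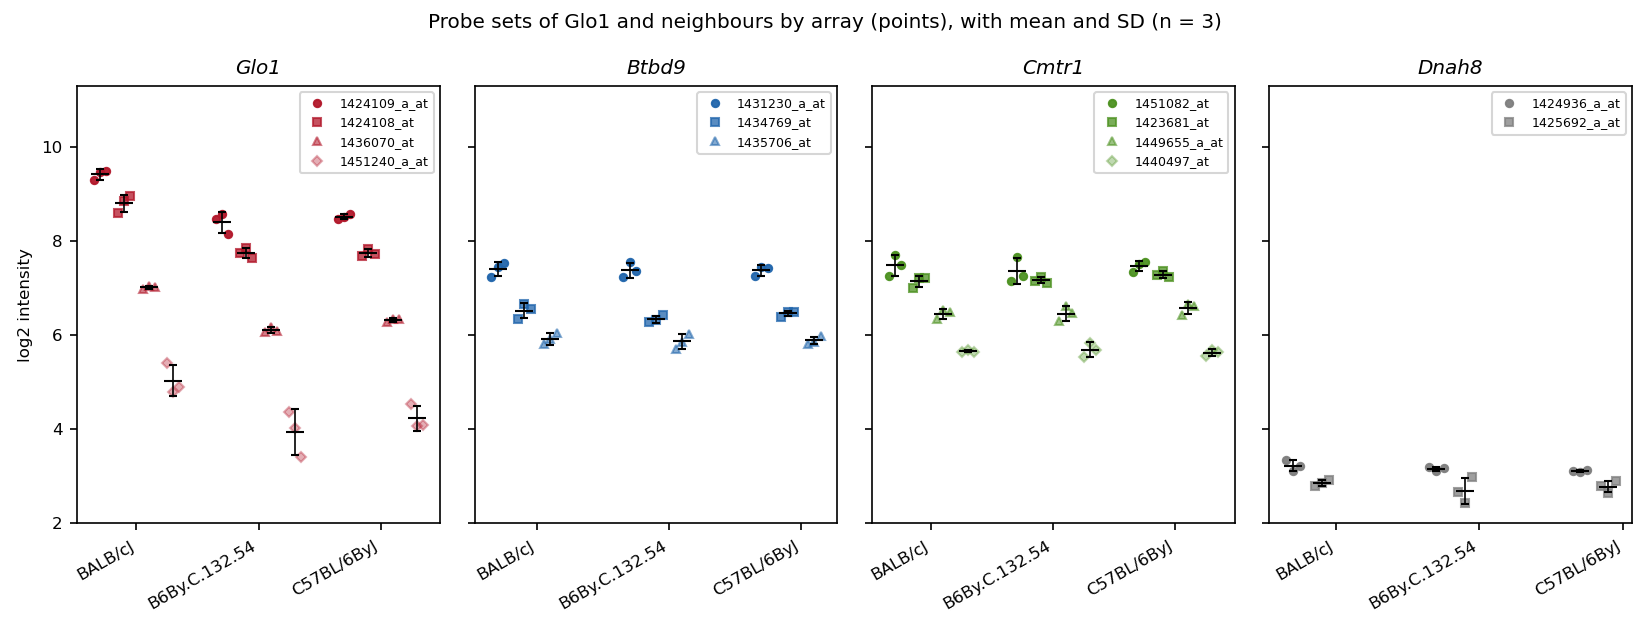
Log2 intensity (vertical axis) of each probe set of Glo1, Btbd9, Cmtr1 and Dnah8 in the 3 strains; points are arrays, and black marks are the mean and SD over 3 arrays. The Glo1 points of BALB/cJ lie above those of the other strains, while the neighbours' points of the 3 strains lie at like heights and both Dnah8 probe sets stay under 3.4.

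Btbd9, which lies next to Glo1, did not pass in BALB/cJ on any of its 3 probe sets. Its brightest, 1431230_a_at, read 7.24, 7.45 and 7.53 in BALB/cJ, against 7.25, 7.46 and 7.44 in C57BL/6ByJ. The arrays of the strains overlapped, and the difference was 0.0245 ± 0.113 log2 (SE; 95% interval -0.22 to 0.27; limma adjusted p = 0.995). Probe sets 1434769_at and 1435706_at differed by 0.0615 and 0.0304, with intervals of -0.15 to 0.28 and -0.20 to 0.26. These intervals all end below the 0.53 at which the lowest interval of a called Glo1 probe set begins. The interval of the uncalled Glo1 probe set, 1451240_a_at, began at 0.274, just under the 0.275 at which that of Btbd9 1434769_at ends.

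Cmtr1 was measured by 4 probe sets, and none passed. The brightest, 1451082_at, read 7.27, 7.71 and 7.49 in BALB/cJ, against 7.35, 7.52 and 7.56 in C57BL/6ByJ, a difference of 0.0081 ± 0.148 log2 (SE; limma adjusted p = 0.998). Probe set 1423681_at was the 1 neighbour probe set without overlap, with every BALB/cJ array (7.01, 7.21 and 7.22) below every C57BL/6ByJ array (7.27, 7.38 and 7.23). Such a gap was seen in 5.95% of all probe sets, and the difference of -0.15 ± 0.0904 did not pass (limma adjusted p = 0.843). The other 2, 1449655_a_at and 1440497_at, differed by -0.12 and 0.032 log2.

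Dnah8 gave signals below the median level of all probe sets in every strain. Its probe set 1424936_a_at read 3.35, 3.11 and 3.21 in BALB/cJ, against 3.11, 3.09 and 3.13 in C57BL/6ByJ. Probe set 1425692_a_at read 2.79, 2.87 and 2.93 in BALB/cJ, against 2.79, 2.66 and 2.89 in C57BL/6ByJ. The differences of 0.11 ± 0.0852 and 0.0824 ± 0.129 log2 (SE) did not pass (limma adjusted p = 0.896 and 0.977). At such levels a change in Dnah8 transcript may not be detectable. Of 4 markers of ciliated ependyma, the brain cells with motile cilia, 3 lay below the median level too, Foxj1 at 3.38 among them.

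Over the 9 neighbour probe sets the median difference of BALB/cJ from C57BL/6ByJ was 0.0304 log2, beside 0.0181 over all probe sets and 0.85 over the 4 of Glo1. The neighbours' differences ran from -0.15 to 0.11, with 7 above 0 and 2 below. None had an unadjusted p under 0.05, where 7.58% of all probe sets did.

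**Figure D2:**
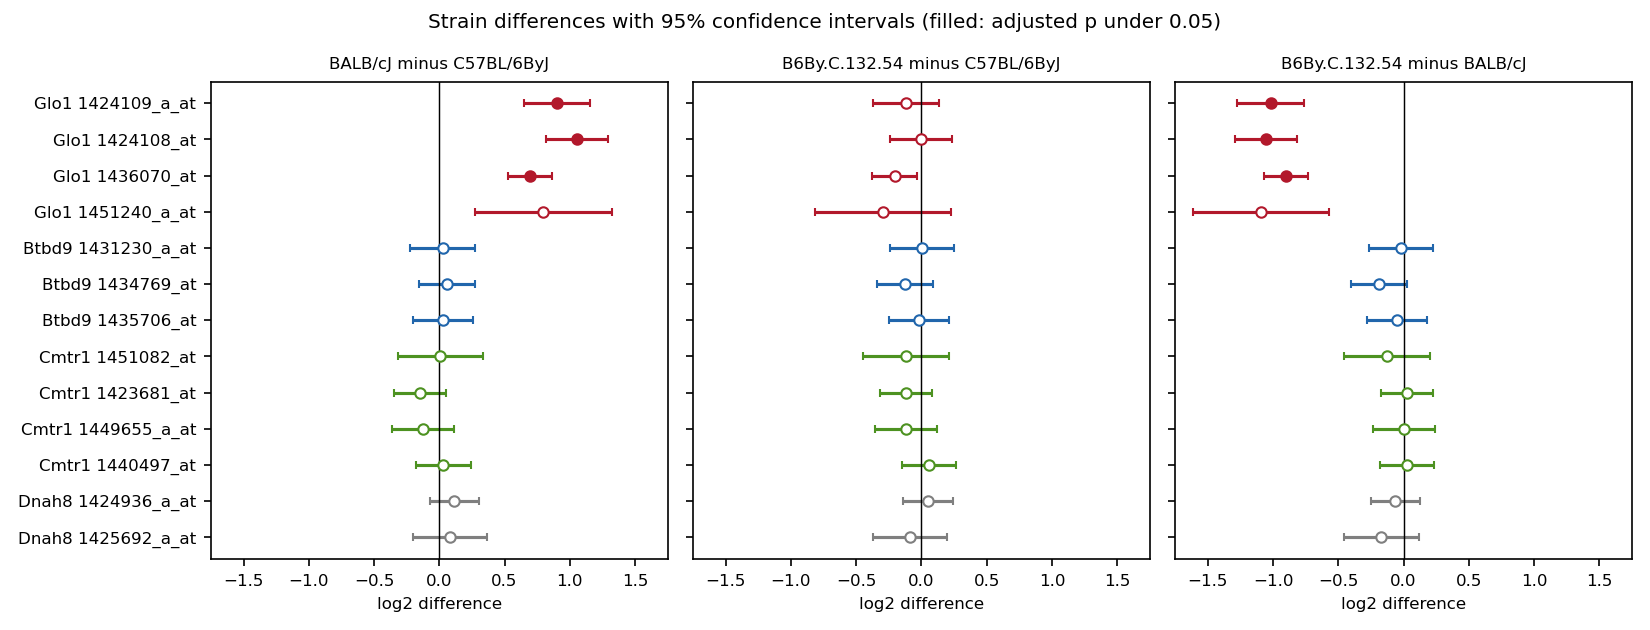
Log2 difference between strains (horizontal axis) for each of the 13 probe sets in the 3 comparisons, with 95% confidence intervals; filled points have a limma adjusted p under 0.05. Filled points are those of 3 Glo1 probe sets in each comparison with BALB/cJ, and none is filled between B6By.C.132.54 and C57BL/6ByJ.

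The contrast between Glo1 and each neighbour was also taken array by array, as the mean log2 value over the Glo1 probe sets minus that over a neighbour's, a quantity that is compared between strains only. Against Btbd9 it was 0.95 ± 0.132 in BALB/cJ and 0.13 ± 0.110 in C57BL/6ByJ (SD, n = 3 each), a shift of 0.82. Against Cmtr1 it was 0.88 ± 0.126 in BALB/cJ and -0.0379 ± 0.112 in C57BL/6ByJ, a shift of 0.92. In each of these the 3 BALB/cJ arrays lay above the 3 C57BL/6ByJ arrays (exact permutation test, two-sided p = 0.1, the smallest that 3 arrays against 3 allow). Adjusted over the 9 such tests run (3 neighbours in 3 comparisons), the exact permutation p was 0.15. Since the Glo1 arrays of these strains do not overlap, the contrast largely restates the Glo1 difference and is no separate evidence; that with Dnah8 is not read, because its probe sets are dim.

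B6By.C.132.54 against BALB/cJ gave the reverse direction at Glo1, in a comparison that shares the BALB/cJ arrays with the one above. Glo1 was lower in B6By.C.132.54 on all 4 probe sets, 3 of them called, where 0.564% of all probe sets were called lower. On all 4 every B6By.C.132.54 array lay below every BALB/cJ array, as on 5.72% of all probe sets. Probe set 1424109_a_at read 8.48, 8.58 and 8.15 in B6By.C.132.54, against 9.29, 9.46 and 9.50 in BALB/cJ. Replicate 3 of B6By.C.132.54 was lowest, and the level was 2.03-fold lower (-1.02 ± 0.115 log2, SE; limma adjusted p = 0.000776). Without that array the difference was -0.89.

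The level of 1424108_at was 2.08-fold lower (7.74, 7.86 and 7.64 in B6By.C.132.54; limma adjusted p = 0.000368). That of 1436070_at was 1.87-fold lower (6.07, 6.18 and 6.10 in B6By.C.132.54; limma adjusted p = 0.000109). The dimmest, 1451240_a_at, read 4.38, 4.03 and 3.42 in B6By.C.132.54 and missed the threshold (-1.09 ± 0.237 log2, SE; limma adjusted p = 0.0590), but passed with the replicate number as a block (limma adjusted p = 0.00114). Leaving out B6By.C.132.54 replicate 1 also brought it past the threshold (-1.31 log2; limma adjusted p = 0.0235). No neighbour probe set was called in this comparison, where 1.28% of all probe sets were, and none had an unadjusted p under 0.05, where 7.5% did. The neighbours' differences ran from -0.19, for Btbd9 1434769_at (limma adjusted p = 0.746), to 0.0281, for Cmtr1 1440497_at, with a median of -0.0492 beside -0.024 over all probe sets.

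Between B6By.C.132.54 and C57BL/6ByJ, no call fell on Glo1 or its neighbours. Over the whole array limma called none either (0% of 45037), while 3.89% had an unadjusted p under 0.05. The difference of B6By.C.132.54 from C57BL/6ByJ was -0.12 ± 0.115 log2 (SE) for 1424109_a_at, with a 95% interval of -0.37 to 0.14. It was -0.0046 ± 0.108 for 1424108_at, with an interval of -0.24 to 0.23. Both intervals end well short of the BALB/cJ differences of 0.90 and 1.05.

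The lowest unadjusted p among the members in that comparison belonged to Glo1 1436070_at. It read 6.07, 6.18 and 6.10 in B6By.C.132.54, against 6.28, 6.34 and 6.35 in C57BL/6ByJ, so that all B6By.C.132.54 arrays lay lower, as in 3.54% of all probe sets. The difference of -0.21 ± 0.0772 log2 (SE) did not pass (limma adjusted p = 0.915). The 4 Glo1 differences were all at or below 0, from -0.29 to -0.0046, but 1424109_a_at and 1424108_at turned to 0.0087 and 0.048 without B6By.C.132.54 replicate 3. Among the 9 neighbour probe sets the differences ran from -0.12 for Btbd9 1434769_at to 0.060 for Cmtr1 1440497_at.

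The order of Glo1 levels was therefore BALB/cJ first, with no call to separate B6By.C.132.54 from C57BL/6ByJ. For Btbd9, Cmtr1 and Dnah8 no pair of strains was separated by a call. As at most 1.43% of all probe sets were called in a comparison, that absence does not set these genes apart. The study was done in 3 batches that each held all strains, but the labels do not say that a replicate number marks a batch. Arrays of the same replicate number deviated together from their strain means over all probe sets (r from 0.147 to 0.542 for the 9 same-numbered pairs, and from -0.458 to 0.153 for the 18 pairs of different numbers, so that the ranges just overlap). The pairs of number 1 stood out, with r of 0.519 to 0.542. Those of number 2 had r of 0.147 to 0.180 and those of number 3 had 0.205 to 0.266. A pair of number 2 with number 3 reached 0.153, so these numbers were hardly told apart. Within each replicate number all 4 Glo1 probe sets were higher in BALB/cJ than in C57BL/6ByJ, by 0.69 to 1.22 log2. The neighbours differed within a number by -0.26 to 0.24, and 5 of the 9 were higher in some numbers and not in others. Both dim Dnah8 probe sets were higher in BALB/cJ in all 3 numbers, by 0.0186 to 0.24 for 1424936_a_at and 0.0050 to 0.21 for 1425692_a_at. Cmtr1 1423681_at and 1449655_a_at were lower in all 3, with differences of -0.26 to -0.0080 and -0.14 to -0.10.

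**Figure D3:**
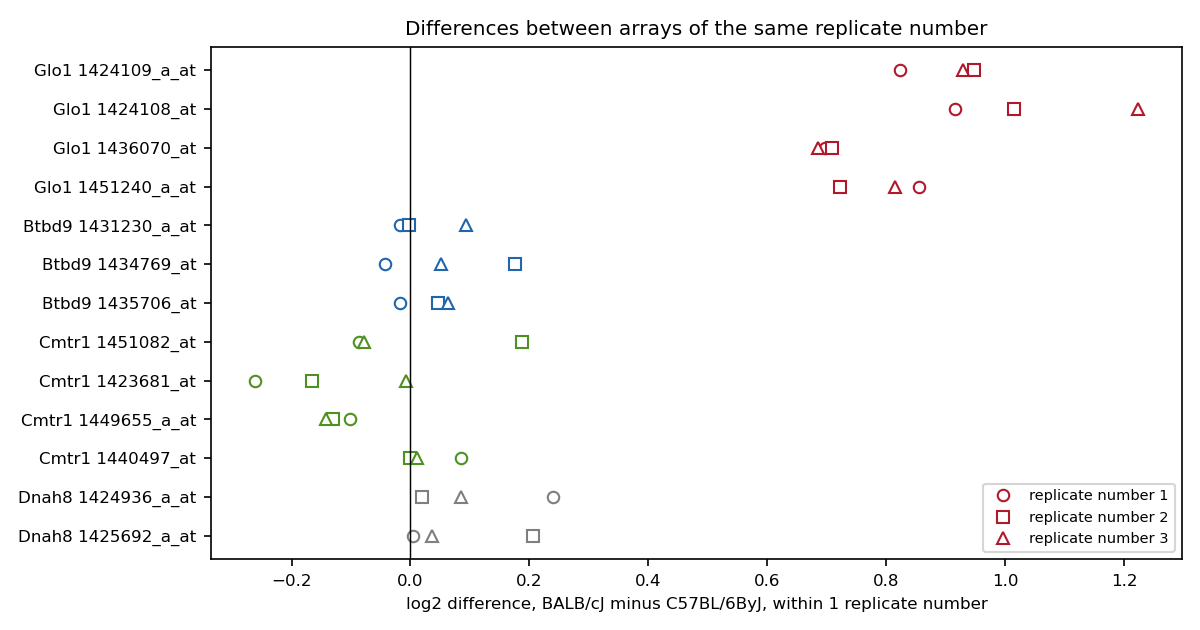
Log2 difference of BALB/cJ minus C57BL/6ByJ (horizontal axis) between arrays that carry the same replicate number, for each of the 13 probe sets; symbols stand for replicate numbers 1, 2 and 3. All Glo1 points lie at or above 0.69, and all neighbour points at or below 0.24.

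Replicate 1 was low for Btbd9 and Cmtr1 in every strain. All 7 probe sets of Btbd9 and Cmtr1 had replicate 1 below the strain mean in each of the 3 strains, with mean deviations of -0.18 to -0.0577 log2, as 27.3% of all probe sets did. Glo1 1424108_at and 1436070_at did so too, with mean deviations of -0.0927 and -0.0447. The dimmest Glo1 probe set, 1451240_a_at, went the other way, with replicate 1 above the strain mean by 0.37 on average. Deviations from the strain means correlated at r = 0.76 between 1424109_a_at and 1424108_at and at r = -0.51 between 1436070_at and 1451240_a_at. Between 1424109_a_at and the brightest probe sets of Btbd9, Cmtr1 and Dnah8 they correlated at r = 0.51, 0.58 and -0.52. The values between Glo1 and neighbour probe sets ran both ways. The highest was r = 0.97, for 1436070_at with Cmtr1 1449655_a_at, and the lowest r = -0.86, for 1451240_a_at with Btbd9 1435706_at. These are descriptions over 9 arrays, which may share a batch.

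Along chromosome 17, the 4 genes that lie among the members and the 10 genes on each side were taken by their probe sets, in RefSeq gene order. These 24 genes had 42 probe sets, and none was called in any of the 3 comparisons. Over the whole array the share called was 1.43% for BALB/cJ against C57BL/6ByJ, 1.28% for B6By.C.132.54 against BALB/cJ and 0% for B6By.C.132.54 against C57BL/6ByJ. With shares this low, an absence of calls among 42 probe sets does not set this stretch apart. Between BALB/cJ and C57BL/6ByJ, 4 of the 42 had an unadjusted p under 0.05, beside the 7.58% of all probe sets. The 4 genes inside were Ccdc167, Mdga1, Zfand3 and 1700097N02Rik, and their 14 probe sets differed by -0.15 to 0.19 log2 in BALB/cJ from C57BL/6ByJ.

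The lowest adjusted p among the 24 genes, named after its values were seen, was that of the sterol transporter gene Abcg1, beyond Dnah8. It was 0.29 higher in BALB/cJ on the brighter of its 2 probe sets (7.02 ± 0.151 log2 intensity in BALB/cJ and 6.73 ± 0.0760 in C57BL/6ByJ, SD, n = 3 each) and did not pass (limma adjusted p = 0.335). The other Abcg1 probe set, at a mean level of 4.22, differed by 0.0259 (limma adjusted p = 0.989). The median difference over the brightest probe sets of the 24 genes was 0.0622, beside 0.0181 over all probe sets.

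**Figure D4:**
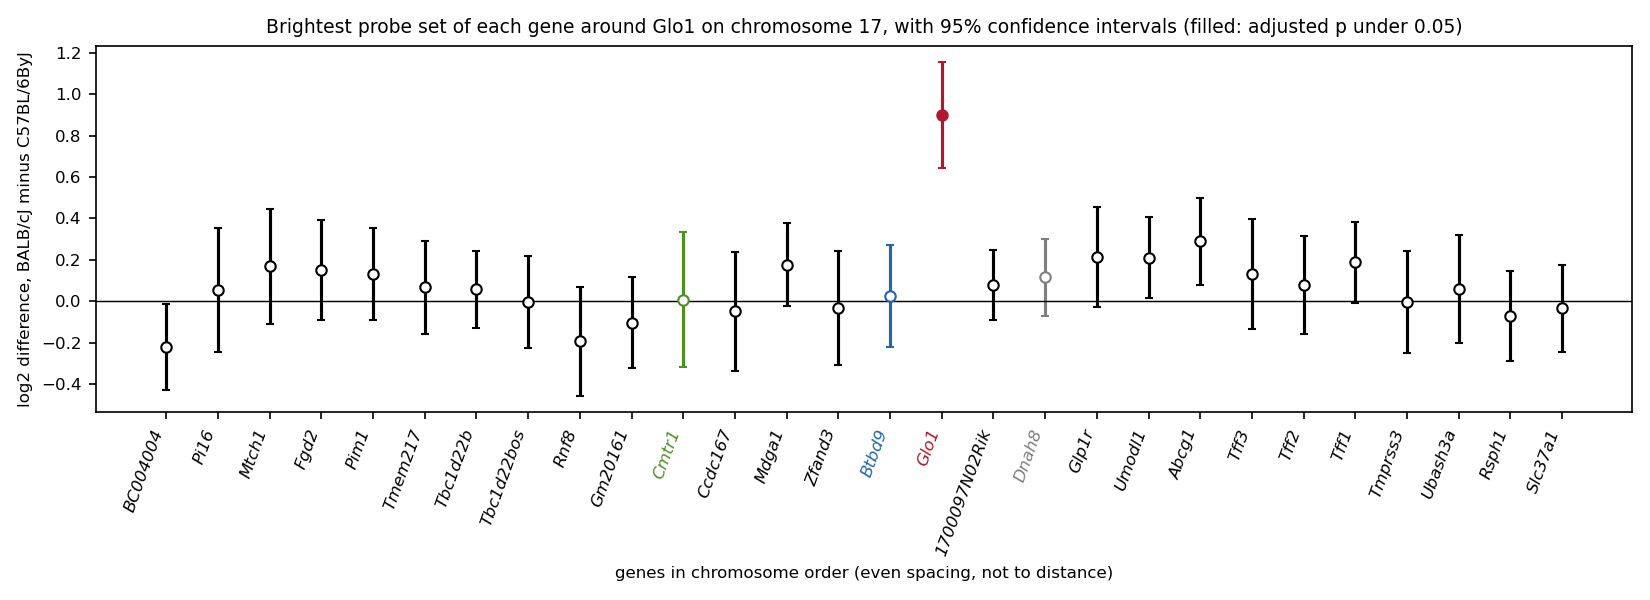
Log2 difference of BALB/cJ minus C57BL/6ByJ (vertical axis) for the brightest probe set of each gene, in chromosome order from left to right with even spacing, with 95% confidence intervals. Glo1 stands at 0.90 and is the 1 filled point (limma adjusted p under 0.05), while the other 27 genes lie between -0.22 and 0.29.

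Of 23 listed genes of methylglyoxal and glutathione metabolism, 20 had a probe set of their own, and by brightest probe set none was called between BALB/cJ and C57BL/6ByJ, where 1.32% of genes were. Their median difference was 0.0226, beside 0.0154 over all genes. Hagh, which encodes glyoxalase 2 and completes the pathway begun by Glo1, differed by -0.10 log2 (limma adjusted p = 0.928) and Park7, whose protein has been reported to act on glyoxals, by 0.0053. Gsr, which regenerates glutathione from its oxidised form, was 0.54 higher (limma adjusted p = 0.0870, and 0.0313 with the replicate number as a block). In B6By.C.132.54 against BALB/cJ, Gsr was the 1 gene of the 20 called, at 5.76 ± 0.0894 in B6By.C.132.54 and 6.40 ± 0.240 in BALB/cJ (SD, n = 3 each; -0.64 log2; limma adjusted p = 0.0378), where 1.1% of genes were called. Its other probe set, also above the median level, did not pass (-0.25 log2; limma adjusted p = 0.413), and differed by 0.0361 in BALB/cJ from C57BL/6ByJ. The call of the brighter was lost without C57BL/6ByJ replicate 1 or 2, BALB/cJ replicate 2 or 3, or any B6By.C.132.54 array (limma adjusted p from 0.0511 to 0.137), and also with log2(intensity + 16) (0.0873) and with only the 6 arrays compared (0.0925).

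Of 14 listed axonemal dynein heavy chain genes, relatives of Dnah8, 9 were measured and none was called in any comparison, where at most 1.32% of genes were, with 6 of their 9 brightest probe sets below the median level. Of 10 genes of messenger RNA capping and cap binding, the wider pathway of Cmtr1, 9 were measured. Dcp2, which encodes a decapping enzyme, was lower in BALB/cJ on its brighter probe set (7.17 ± 0.146 in BALB/cJ and 7.71 ± 0.0743 in C57BL/6ByJ, SD, n = 3 each; -0.53 log2; limma adjusted p = 0.0318). The other 8 genes did not pass, where 1.32% of genes were called. The dim Dcp2 probe set (mean level 3.03) differed by 0.0304 (limma adjusted p = 0.991). In B6By.C.132.54 against BALB/cJ the brighter differed by 0.40 and did not pass (limma adjusted p = 0.165). The Dcp2 call was lost without C57BL/6ByJ replicate 1, 2 or 3 or BALB/cJ replicate 2 or 3 (limma adjusted p from 0.0795 to 0.156). The 5 BTB relatives and cullin genes (Btbd1, Btbd2, Btbd3, Btbd6 and Cul3) held no called member, with differences of -0.24 to 0.0917 in BALB/cJ from C57BL/6ByJ.

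Among 11468 genes whose brightest probe set was at or above the median level, the 5 with the pattern most like the brightest Glo1 probe set over the 9 arrays were Tcte1 (r = 0.993), 2610005L07Rik (0.990), Adipor2 (0.988), Pla2g4e (0.985) and Bmp7 (0.984). Tcte1, a gene named for testis expression, also lies on chromosome 17, with 226 measured genes between it and Glo1. It read 7.63 ± 0.151 in BALB/cJ, 6.59 ± 0.141 in B6By.C.132.54 and 6.71 ± 0.0587 in C57BL/6ByJ (SD, n = 3 each). The brightest probe sets of Btbd9, Cmtr1 and Dnah8 had r = 0.216, 0.336 and 0.392 with that of Glo1. These correlations are descriptions over 9 arrays that fall into 3 strains, and the step between strains at Glo1 sets much of them.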

How the data were processed

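The values are linear signal intensities as deposited, 1 for each array and probe set. GCOS and RMA are the tools listed per the submitters' processing notes, and their order, versions and background treatment are not given in the sources used here. Of 45101 probe sets, 64 controls were left out. Deposited intensities were converted to log2 without a pseudocount or further normalization. The platform annotation named 1 gene for 34945 probe sets, and symbols and gene order came from RefSeq (GRCm38.p6); the table names no build, so genes carry no coordinates apart from the printed sequences.

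The test was limma's (version 3.58.1, R 4.3.3; lmFit, then eBayes; two-sided), with all 9 arrays, strain as the factor, 6 residual and 4.82 prior degrees of freedom. It was tested on simulated data. The members, lists and tests were chosen with earlier results of these data known. The main test took no account of replicate numbers. Arrays were paired by replicate number only in the block alternative and in the differences within a number. This was done because every same-numbered pair's correlation was above 0.1, though pairs of different numbers reached 0.153. Named genes were the members, any called gene among the 4 genes between them, the 10 genes on each side or the lists, other list genes as examples (Hagh, Park7), and the 5 genes most like Glo1. The naming of Abcg1, the 4 genes between the members, the 3 called cell markers and the other markers of their cell types came after seeing values. The number of arrays limits the precision. Alternatives were the replicate number as a block, leaving out each array, quantile normalization, log2(intensity + 16), leaving out dim probe sets, fitting only the 6 arrays compared, and the median over a gene's probe sets.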

Additional observations from a re-analysis of the deposited data

How the results depend on the processing

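The 3 called Glo1 probe sets stayed called against BALB/cJ under all 14 alternatives in both comparisons, with differences of 0.60 to 1.15 log2 in BALB/cJ over C57BL/6ByJ, and no neighbour probe set was called under any. With the replicate block all 4 Glo1 probe sets were called in both comparisons, and of the named results the block changed the call of 1451240_a_at (both comparisons) and of Gsr (BALB/cJ against C57BL/6ByJ). The 644 probe sets called between BALB/cJ and C57BL/6ByJ were 410 to 706 when 1 array was left out (410 without C57BL/6ByJ replicate 2) and 953 with the block.

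Uncalled differences near 0 changed sign, and the cause was not tested. With the median over a gene's probe sets the log2 difference was -0.14 for Cmtr1 (BALB/cJ against C57BL/6ByJ), -0.12 for Btbd9 and -0.018 for Dnah8 (B6By.C.132.54 against C57BL/6ByJ), and 0.014 for Cmtr1 (B6By.C.132.54 against BALB/cJ). Quantile normalization gave 0.070 for Glo1 1424108_at and 0.058 for Btbd9 1435706_at (B6By.C.132.54 against C57BL/6ByJ), and 0.019 for Btbd9 1431230_a_at and 0.0062 for 1435706_at (B6By.C.132.54 against BALB/cJ). Leaving out 1 array at a time gave, in BALB/cJ against C57BL/6ByJ, -0.039 to 0.11 for Btbd9 1431230_a_at, -0.012 to 0.15 for Btbd9 1434769_at, -0.032 to 0.088 for Btbd9 1435706_at, -0.10 to 0.12 for Cmtr1 1451082_at and -0.0054 to 0.064 for Cmtr1 1440497_at. It gave, in B6By.C.132.54 against C57BL/6ByJ, -0.21 to 0.0087 for Glo1 1424109_a_at, -0.060 to 0.048 for Glo1 1424108_at, -0.079 to 0.079 for Btbd9 1431230_a_at, -0.10 to 0.059 for Btbd9 1435706_at, -0.017 to 0.14 for Cmtr1 1440497_at and -0.23 to 0.044 for Dnah8 1425692_a_at. It gave, in B6By.C.132.54 against BALB/cJ, -0.11 to 0.054 for Btbd9 1431230_a_at, -0.13 to 0.029 for Btbd9 1435706_at, -0.043 to 0.062 for Cmtr1 1423681_at, -0.075 to 0.088 for Cmtr1 1449655_a_at and -0.048 to 0.11 for Cmtr1 1440497_at. The dim Dnah8 probe sets were not testable with dim probe sets left out. No calls of B6By.C.132.54 against C57BL/6ByJ appeared under any alternative.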
